A study of Mus musculus with 10 samples.

Results

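The 9 genes described here encode transcription factors of the stabilising loop of the circadian clock and of its first output layer: Nr1d1, Nr1d2, Rora, Dbp, Tef, Hlf, Nfil3, Ciart and Bhlhe41. They were taken by gene symbol from a count table of 56691 genes, where each symbol stood on 1 entry, and 9 of 9 were among the 16591 genes that passed the expression filter. The table comes from poly(A) RNA of visceral adipose tissue of 10 male mice, 10 weeks old and kept for 8 weeks on chow, with 1 library per mouse. The groups are 5 wild-type mice (WT1 to WT5, genotype WT) and 5 mice of the genotype aADM2-tg (tg1 to tg5), which by the title of the series overexpress adrenomedullin 2 in adipose tissue. For the promoter that drives the transgene, the strain and the time of day of sampling, nothing is stated in the labels. The question set by the design was how the transcripts of this fat differ between the genotypes.

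In the mammalian clock, CLOCK and BMAL1 (gene Arntl) bind E-boxes and switch on the Per, Cry, Nr1d1, Nr1d2 and Dbp genes, and the PER and CRY proteins then inhibit them. The REV-ERB proteins (Nr1d1, Nr1d2) and RORA compete for the same response elements, called ROREs, from which REV-ERBs repress and RORs activate Arntl and other genes. DBP, TEF and HLF, the PAR bZIP factors, activate genes with D-box elements, which NFIL3 represses, and CIART and BHLHE41 repress at E-boxes. In white fat this network drives daily rhythms of lipid metabolism and adipokine genes, and Nr1d1 is also known as a factor of adipocyte differentiation.

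Of the 9 factors, Rora was lower in aADM2-tg, at 52.0 ± 7.74 against 106 ± 7.54 counts per 1000000 counted reads (CPM, mean ± SD, n = 5), a 1.95-fold difference. Dbp was 1.66-fold higher and Tef 1.28-fold higher. The other 6, both REV-ERB genes among them, did not pass the test. The count was therefore 2 of 9 higher and 1 of 9 lower, where 13.8% of all tested genes were called higher and 12.7% lower. For 2 of the 9, Rora and Tef, all libraries of one genotype lay on one side of the other, as for 17.1% of all tested genes. These counts of members are close to what the background shares give for 9 genes. The median log2 change of the 9 was 0.06 and the median absolute change 0.35, against 0.02 and 0.27 over all tested genes. Each test is edgeR's quasi-likelihood test with Benjamini-Hochberg adjustment over all tested genes and a threshold of 0.05, and log2 changes are those of aADM2-tg over WT.

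Promoter sequence of these genes is shown for the 3 that passed the test and for the 3 others in which a searched motif was found. Each line gives the 250 bases before the annotated start in RefSeq (GRCm38.p6), 5′ to 3′ on the strand of the gene, in lower case with motif matches in capitals. The windows are chr9:68653536-68653785 (plus strand) for Rora, chr7:45704997-45705246 (plus) for Dbp, chr15:81802423-81802672 (plus) and chr15:81811164-81811413 (plus) for the 2 annotated starts of Tef, chr3:95882229-95882478 (minus) for Ciart, chr6:145865421-145865670 (minus) for Bhlhe41 and chr13:52981040-52981289 (minus) for Nfil3.
Rora: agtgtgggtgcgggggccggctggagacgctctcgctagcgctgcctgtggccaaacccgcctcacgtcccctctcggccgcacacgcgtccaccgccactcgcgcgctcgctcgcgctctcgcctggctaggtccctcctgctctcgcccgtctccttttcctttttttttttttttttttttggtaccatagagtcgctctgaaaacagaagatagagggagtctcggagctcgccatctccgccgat
Dbp: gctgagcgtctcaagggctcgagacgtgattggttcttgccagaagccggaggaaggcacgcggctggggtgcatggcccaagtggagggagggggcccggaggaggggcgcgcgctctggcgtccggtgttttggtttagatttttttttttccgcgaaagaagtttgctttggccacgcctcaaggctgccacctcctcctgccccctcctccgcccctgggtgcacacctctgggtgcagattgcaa
Tef, upstream start: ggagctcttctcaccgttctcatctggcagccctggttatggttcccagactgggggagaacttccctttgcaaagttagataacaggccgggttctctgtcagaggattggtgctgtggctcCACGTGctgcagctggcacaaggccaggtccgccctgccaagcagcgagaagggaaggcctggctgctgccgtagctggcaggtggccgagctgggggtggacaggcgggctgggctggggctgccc
Tef, downstream start: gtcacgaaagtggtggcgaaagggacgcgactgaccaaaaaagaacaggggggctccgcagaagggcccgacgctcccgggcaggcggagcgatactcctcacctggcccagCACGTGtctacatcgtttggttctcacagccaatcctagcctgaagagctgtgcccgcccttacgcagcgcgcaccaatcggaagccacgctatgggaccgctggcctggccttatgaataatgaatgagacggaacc
Ciart: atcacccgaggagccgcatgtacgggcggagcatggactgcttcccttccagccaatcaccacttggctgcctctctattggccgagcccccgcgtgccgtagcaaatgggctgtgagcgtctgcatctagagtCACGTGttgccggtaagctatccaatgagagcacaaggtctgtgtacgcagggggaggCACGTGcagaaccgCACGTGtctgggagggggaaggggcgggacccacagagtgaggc
Bhlhe41: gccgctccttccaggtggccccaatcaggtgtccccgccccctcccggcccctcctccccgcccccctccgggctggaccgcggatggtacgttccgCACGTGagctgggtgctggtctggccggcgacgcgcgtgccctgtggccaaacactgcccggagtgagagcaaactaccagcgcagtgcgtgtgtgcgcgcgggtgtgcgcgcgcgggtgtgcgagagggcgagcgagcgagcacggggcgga
Nfil3: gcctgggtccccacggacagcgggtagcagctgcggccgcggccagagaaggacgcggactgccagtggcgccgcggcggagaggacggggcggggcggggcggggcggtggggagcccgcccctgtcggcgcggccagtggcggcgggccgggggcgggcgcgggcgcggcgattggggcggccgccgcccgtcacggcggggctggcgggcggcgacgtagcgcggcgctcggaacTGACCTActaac

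Capitals in these lines mark the E-box CACGTG or the RORE core, searched as TAGGTCA and TGGGTCA, on both strands. The Ciart window holds 3 E-boxes, which begin 116, 58 and 44 bases before the start. Each Tef window holds 1, at 127 and 138 bases before its start, and the Bhlhe41 window holds 1 at 153 bases. The Nfil3 window holds a RORE core, read there as TGACCTA on the gene's strand, 12 bases before the start. In the windows of Rora, Dbp, Nr1d1, Nr1d2 and Hlf none of these letters were found, and the D-box, searched as TTACGTAA and TTATGTAA, was found in 0 of the 10 windows of the 9 genes. Of 32851 RefSeq windows of the same length, 6.02% hold the E-box, 5.38% the RORE core and 0.931% the D-box. The motifs do not overlap each other, and a match is a run of letters, not a measured binding site. Sequence outside these windows and other spellings of the motifs were not searched. A motif not found is therefore absent from the window only, not from the gene.

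The libraries held 16030435 to 18214504 counted reads, so that 3 counts, the limit that a count of 0 allows, stand for 0.165 to 0.187 CPM (counting error only). The group directions rest on the sample labels. The count table has 2 header lines, and the second follows the labels, while the first places ADM names over WT columns and control names over aADM2-tg columns. Adm2, the gene of the overexpressed peptide, was counted with 2 reads in WT3 and with 0 in all other libraries, so the transgene could not be used to check the labels. The labels call the samples mature adipocytes, yet Pecam1 of endothelium stood at 245 to 380 CPM and Adgre1 of macrophages at 17.1 to 46.7 CPM. No reference library of whole fat or of purified adipocytes was at hand to compare these levels with. Libraries also differed in RNA of genital duct epithelium: 18 duct and ciliated cell markers summed to 172 to 379 CPM in WT2 to WT5 and to 500 CPM in tg2, but to 24.8 to 47.4 CPM in WT1, tg1, tg3, tg4 and tg5. The ciliary regulator Foxj1 was at 10.9 to 57.2 CPM in the former and 0 to 0.110 CPM in the latter. Results are therefore also given within these sets of libraries for Rora, Dbp and Tef. For some genes they are given with the mean log2 level of the tested duct markers, the duct score, as a term of the model. In bulk tissue, fewer cells of a type and less RNA per cell cannot be told apart.

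**Figure D1:**
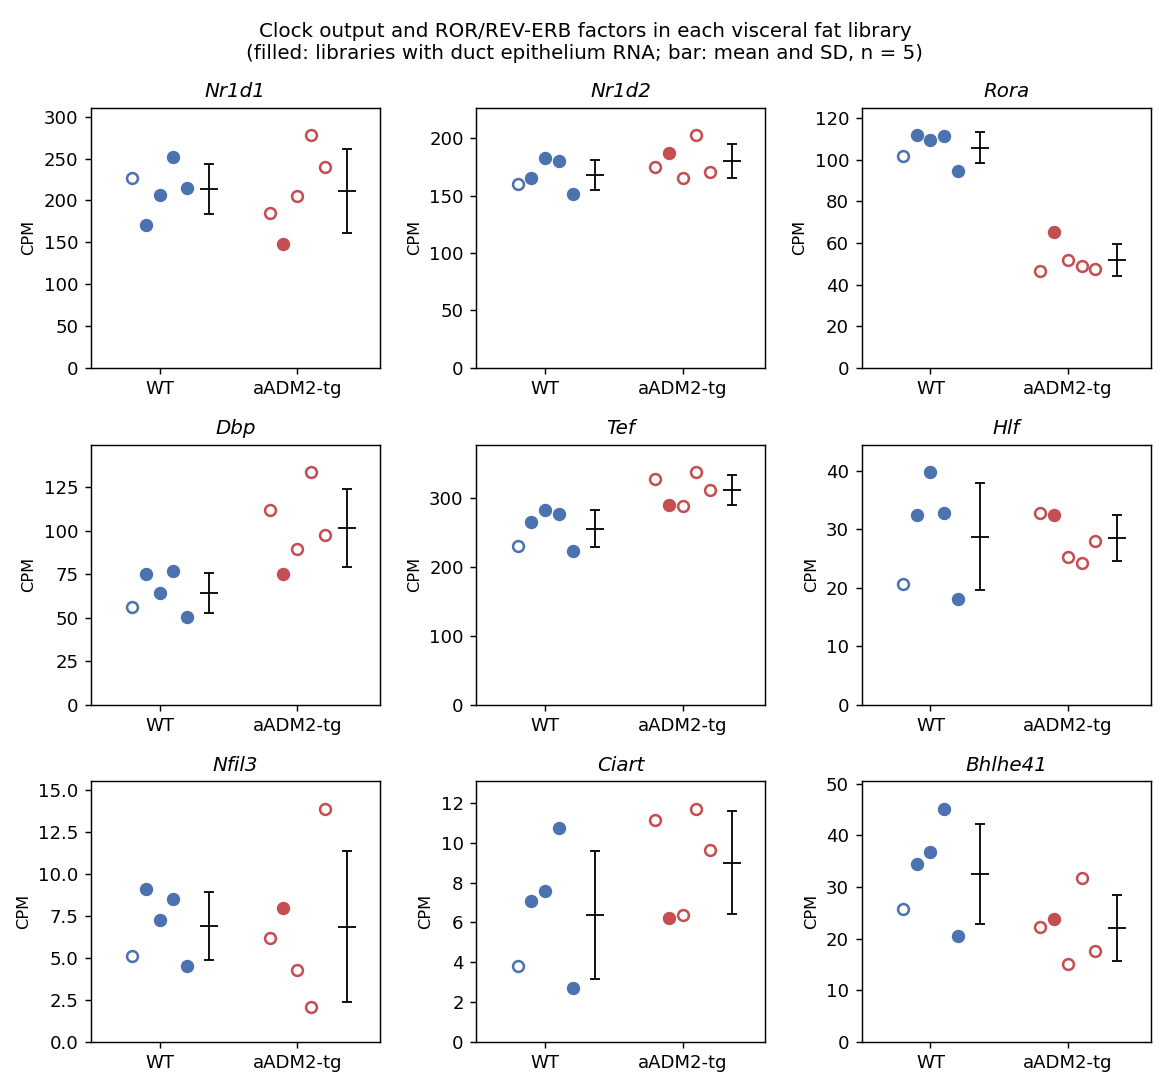
Level in CPM (vertical axis, from 0) of each of the 9 factors in each library, with WT in blue and aADM2-tg in red, filled points for the libraries with duct RNA, and bars for the mean and SD of n = 5. The Rora points of aADM2-tg lie between 46.4 and 65.3 CPM, all under the lowest WT point at 94.4 CPM, while Nr1d1 overlaps between the groups.

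The RORA gene had the smallest adjusted p of the 9. Rora (ENSMUSG00000032238, chr9:68561068-69295528, plus strand; positions of genes are those of the count table, which names no build and does not follow the positions of GRCm38) encodes the activator of RORE genes. It stood at 102, 112, 109.6, 111 and 94.4 CPM in WT1 to WT5 and at 46.4, 65.3, 51.8, 49.0 and 47.2 CPM in tg1 to tg5. The groups did not overlap, and tg2 was the highest of its group. This is a log2 change of -0.96 (SE 0.0842, adjusted p = 0.000405). The difference was present in both duct sets: WT1 at 102 CPM against 46.4 to 51.8 CPM in tg1, tg3, tg4 and tg5, and tg2 at 65.3 CPM against WT2 to WT5 at 94.4 to 112 CPM. In 21 alternative fits the Rora change ranged from -1.11, with the libraries that carry duct RNA left out, to -0.66. The -0.66 came after a correction for exonic length and GC content (adjusted p = 0.000762), and the next smallest change was -0.87. With any 1 library left out the adjusted p of Rora reached at most 0.00241. Markers of progenitors and fibroblasts moved the same way, with 6 of 8 lower and a summed level of 4494 to 7849 CPM in WT against 1990 to 3019 CPM in aADM2-tg, and their part in the Rora result was not tested. Macrophage markers were lower for 4 of 7 (921 to 1115 CPM summed in WT, 461 to 821 CPM in aADM2-tg), and mature adipocyte markers were higher for 6 of 10 (24425 to 29274 CPM against 29168 to 39230 CPM).

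The REV-ERB genes, whose products oppose RORA, did not pass the test. Nr1d1 (ENSMUSG00000020889, chr11:98658758-98666159, minus strand), which encodes REV-ERB alpha, stood at 227, 171, 207, 252 and 214 CPM in WT1 to WT5 and at 185, 148, 205, 278 and 240.1 CPM in tg1 to tg5. The aADM2-tg values spread on both sides of the WT range, with tg2 below and tg4 above every WT library. Its log2 change was 0.04 (SE 0.177, adjusted p = 0.867). Nr1d2 (ENSMUSG00000021775, chr14:4230569-4265642, plus strand), which encodes REV-ERB beta, stood at 159.8, 165, 182, 179.8 and 152 CPM in WT1 to WT5 and at 175, 187, 166, 202 and 170.2 CPM in tg1 to tg5. Values overlapped, and 2 of 5 aADM2-tg libraries were above all WT libraries. The log2 change of Nr1d2 was 0.16 (SE 0.0708, adjusted p = 0.107), and it passed the test after a correction for exonic length and GC content (log2 0.31, adjusted p = 0.0119). Nr1d1 ends on the opposite strand from Thra, the thyroid hormone receptor alpha gene, and the spans share 1075 bases. Thra had 17461 counts over all libraries against 36795 of Nr1d1, and Thra itself was at 115 ± 7.80 CPM in WT and 86.9 ± 9.79 CPM in aADM2-tg (log2 -0.34, adjusted p = 0.0126). The labels do not say whether counting used strand, so reads of Nr1d1 and Thra in the shared stretch may not be separable.

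Set against each other within a library, the loop factors parted the groups. The summed level per length (FPKM, computed from counts and exonic length) of Nr1d1 and Nr1d2 over that of Rora was 13.3, 10.1, 12.0, 13.5 and 13.5 in WT1 to WT5 and 26.1, 16.5, 24.5, 34.0 and 30.3 in tg1 to tg5. Each aADM2-tg ratio was above every WT ratio, and tg2 was the nearest to WT. The mean log2 ratio differed by 1.04, about the size of the Rora change alone, and lay between 0.94 and 1.20 with any 1 library left out. No test was made of this ratio, which combines the genes described.

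Among the activators at D-boxes, Dbp and Tef were higher in aADM2-tg and Hlf was not. Dbp (ENSMUSG00000059824, chr7:45354512-45359627, plus strand), a gene of strong daily amplitude, stood at 56.1, 74.9, 64.1, 76.7 and 50.4 CPM in WT1 to WT5 and at 112, 75.4, 89.6, 134 and 97.8 CPM in tg1 to tg5. All but tg2 of the aADM2-tg libraries were above every WT library. Dbp rose from 64.5 ± 11.5 to 102 ± 22.3 CPM (n = 5), a log2 change of 0.73 (SE 0.163, adjusted p = 0.00985). Tef (ENSMUSG00000022389, chr15:81686622-81711064, plus strand), whose promoter windows with 1 E-box each are printed above, stood at 231, 265, 283, 278 and 224 CPM in WT1 to WT5 and at 329, 291, 289, 338 and 313 CPM in tg1 to tg5. The groups did not overlap, with the lowest aADM2-tg library close above the highest WT library. Tef rose from 256 ± 27.1 to 312 ± 21.8 CPM (n = 5), a log2 change of 0.35 (SE 0.0788, adjusted p = 0.0101).

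Both rises lost their call in 2 of the 21 alternative fits, where the fall of Rora kept its call. With the duct score in the model the log2 change of Dbp was 0.57 (adjusted p = 0.0665) and that of Tef 0.31 (adjusted p = 0.0545). With the libraries that carry duct RNA left out, which leaves WT1 against tg1, tg3, tg4 and tg5 with the lone WT library assumed to vary like the others, the changes were 0.90 (adjusted p = 0.135) and 0.41 (adjusted p = 0.254). Within the duct sets, Dbp was at 56.1 CPM in WT1 against 89.6 to 134 CPM, but tg2 at 75.4 CPM lay inside the 50.4 to 76.7 CPM of WT2 to WT5. Tef was at 231 CPM in WT1 against 289 to 338 CPM, and tg2 at 291 CPM lay above the 224 to 283 CPM of WT2 to WT5. Dbp shares 737 bases with Sphk2 on the other strand, a sphingosine kinase gene with counts at 19.5% of those of Dbp and a log2 change of -0.03 (adjusted p = 0.851).

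Hlf (ENSMUSG00000003949, chr11:90227362-90281721, minus strand), the third PAR bZIP gene, stood at 20.7, 32.4, 39.7, 32.8 and 18.0 CPM in WT1 to WT5 and at 32.7, 32.4, 25.2, 24.2 and 28.1 CPM in tg1 to tg5. The aADM2-tg values lay inside the WT range, at means of 28.7 ± 9.08 and 28.5 ± 3.96 CPM (log2 0.06, SE 0.183, adjusted p = 0.839). Nfil3 (ENSMUSG00000056749, chr13:53121245-53135109, minus strand), the repressor at D-boxes, stood at 5.09, 9.11, 7.21, 8.47 and 4.49 CPM in WT1 to WT5 and at 6.18, 7.93, 4.24, 2.09 and 13.8 CPM in tg1 to tg5. Its aADM2-tg libraries spread from below to above the WT range, from 38 counts in tg4 to 232 in tg5. The log2 change of Nfil3 was 0.05 (SE 0.404, adjusted p = 0.935) and it was -0.37 without tg5 (adjusted p = 0.469). Its sign also turned without WT1 (-0.02) or WT5 (-0.07).

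The ratio of Dbp to Nfil3 in FPKM was 7.45, 5.57, 6.02, 6.13 and 7.60 in WT1 to WT5 and 12.3, 6.44, 14.3, 43.4 and 4.79 in tg1 to tg5. It was above every WT library in 3 of 5 aADM2-tg libraries, while tg5 was below every WT library. The mean log2 ratio differed by 0.87, and by 0.40 without tg4.

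**Figure D2:**
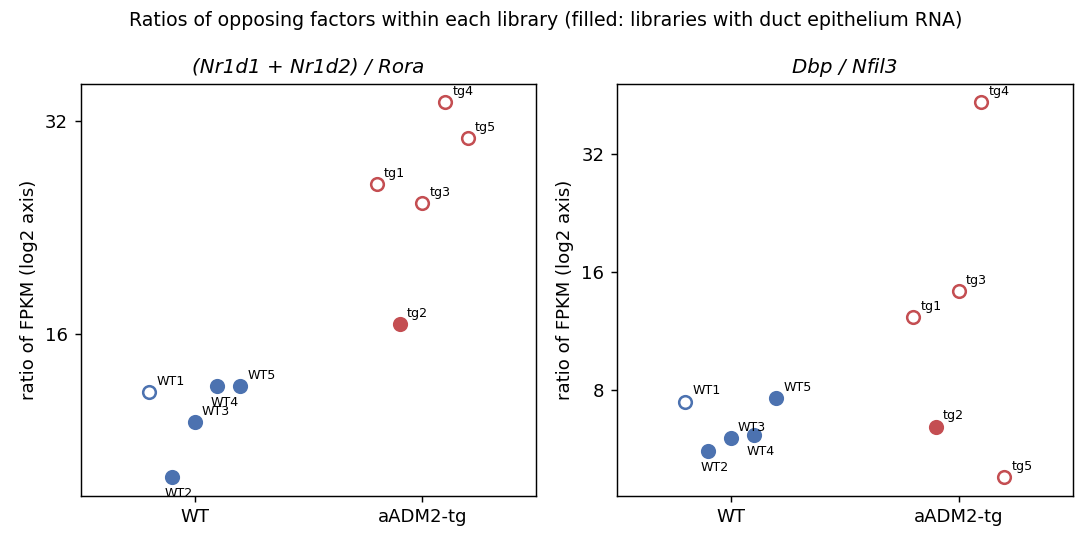
Ratio of FPKM (vertical log2 axis) of the summed REV-ERB genes to Rora (left) and of Dbp to Nfil3 (right) in each library, with WT in blue, aADM2-tg in red and filled points for the libraries with duct RNA. The left ratio runs from 10.1 to 13.5 in WT and from 16.5 to 34.0 in aADM2-tg, and the right one from 5.57 to 7.60 and from 4.79 to 43.4.

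The E-box repressors did not pass the test, and their fitted changes had opposite signs. Ciart (ENSMUSG00000038550, chr3:95785815-95789563, minus strand), with 3 E-boxes in its promoter window, stood at 3.82, 7.09, 7.56, 10.8 and 2.70 CPM in WT1 to WT5 and at 11.2, 6.22, 6.36, 11.7 and 9.65 CPM in tg1 to tg5. The values overlapped, with 2 of 5 aADM2-tg libraries above all WT libraries. The log2 change of Ciart was 0.58 (SE 0.343, adjusted p = 0.234), and it was 0.37 without WT5 (adjusted p = 0.404) and 1.29 with the duct libraries left out (adjusted p = 0.180). The whole of Ciart lies opposite C920021L13Rik, whose counts were 66.1% of those of Ciart (log2 0.20, adjusted p = 0.489), so its level is uncertain where strand was not used.

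Bhlhe41 (ENSMUSG00000030256, chr6:145803969-145811284, minus strand), which encodes DEC2, stood at 25.6, 34.5, 36.8, 45.0 and 20.4 CPM in WT1 to WT5 and at 22.2, 23.8, 15.1, 31.7 and 17.6 CPM in tg1 to tg5. The values overlapped, with 2 of 5 aADM2-tg libraries under all WT libraries. The log2 change of Bhlhe41 was -0.49 (SE 0.225, adjusted p = 0.129). It passed the test without tg4 (log2 -0.66, adjusted p = 0.0490) and with the replicate number as a block (log2 -0.49, adjusted p = 0.0381), where the numbers of tg3 to tg5 are uncertain. With the duct libraries left out it was at -0.29 (adjusted p = 0.756).

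Per exonic length the 9 factors spanned a wide range of levels in WT. Nr1d1 was the highest at 69.6 ± 9.72 FPKM, above every library of the next genes, Tef at 32.5 ± 3.44 and Nr1d2 at 31.0 ± 2.41 FPKM, which overlapped each other. Dbp followed at 21.5 ± 3.83 FPKM and Rora at 8.09 ± 0.577 FPKM, each apart from its neighbours. Bhlhe41, Hlf, Nfil3 and Ciart, at 4.84, 4.30, 3.39 and 2.83 FPKM, overlapped from one to the next. In aADM2-tg, Nr1d1 again led at 68.6 ± 16.2 FPKM, and Tef, Dbp and Nr1d2 (39.7, 34.0 and 33.3 FPKM) overlapped as neighbours. Rora, at 3.98 ± 0.592 FPKM, there lay among Hlf, Ciart, Nfil3 and Bhlhe41 (4.27, 3.99, 3.38 and 3.29 FPKM).

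Within the groups, several of the factors deviated together. WT5 was the lowest WT library for 8 of the 9, where it was the lowest for 15.6% of all tested genes, and tg4 was the highest aADM2-tg library for 6 of 9, where it was the highest for 16.3%. Over the 10 libraries, deviations of log2 CPM from the group means ran together for Dbp and Tef (Pearson 0.89), Tef and Ciart (0.89) and Dbp and Ciart (0.82), and in opposite directions for Nr1d2 and Nfil3 (-0.54). The correlations are descriptions over libraries that share depth and composition, with no test.

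**Figure D3:**
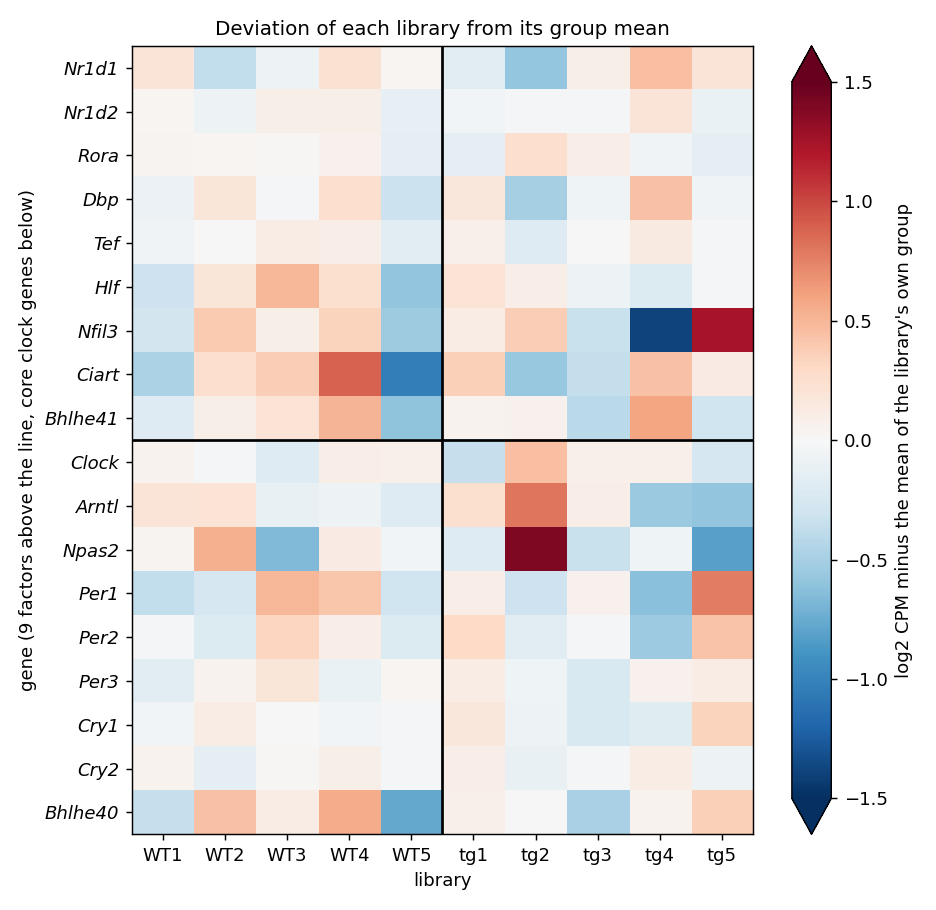
Deviation of log2 CPM of each library from the mean of its own group (colour, red above and blue below), for the 9 factors above the horizontal line and the core clock genes below it, with WT libraries left and aADM2-tg libraries right of the vertical line. WT5 lies below its group mean for all of the 9 but Nr1d1 (0.03) and is lowest of its group in 8, while Nfil3 parts from the others in tg4 and tg5.

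The genes of most similar deviations were found for 3 of the factors among genes with at least 1 FPKM. For Dbp they were Kctd7, Snx33, Lysmd2, H2az2 and Pus1 (Pearson 0.87 to 0.93), and Tef ranked 5 and Ciart 26 of 16590 tested genes. For Nr1d1 they were Syde1, Arhgap23, Ncln, Golga2 and Lasp1 (0.94 to 0.95). Nr1d2, its paralog, ranked 2917 there (0.49), and Arntl ranked 16348 (-0.81). Nr1d1 and Arntl both deviated most in tg2, at -0.57 and 0.80, and the cause was not tested. For Nfil3 they were Rnf214, Med1, Atp2a2, Diaph1 and Pacsin2 (0.94 to 0.96), with Cry1 at rank 431 (0.75) and Per2 at 519 (0.73).

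Of 10 tested genes of the core clock list, 3 rose, 4 fell and 3 did not pass the test, where 13.8% of all tested genes were called higher and 12.7% lower. The median log2 change of the list was -0.30 and the median absolute change 0.75, against 0.02 and 0.27 over all tested genes. The activator genes were lower. Clock fell from 123 ± 9.03 to 63.7 ± 16.4 CPM (log2 -0.89, adjusted p = 0.00222), Arntl from 10.0 ± 1.30 to 3.88 ± 1.81 CPM (log2 -1.32, adjusted p = 0.00612) and Npas2, a CLOCK paralog, from 4.23 ± 1.30 to 1.35 ± 1.13 CPM (log2 -1.60, adjusted p = 0.0205). The size of 2 of these changes depended on the setting: Clock was at -0.50 after the correction for exonic length and GC content (adjusted p = 0.00701), and Arntl at -0.63 by limma-trend on log2 of FPKM plus 1 (adjusted p = 0.00467). Npas2 lost its call without WT2 (adjusted p = 0.0530) or tg3 (adjusted p = 0.0508). The time of day of sampling is not stated in the labels, and its part in the changes of the core clock genes, Dbp and Tef was not tested.

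The repressor genes of the core loop went the other way or did not pass. Per2 rose from 49.1 ± 8.47 to 109 ± 28.7 CPM (log2 1.21, adjusted p = 0.00183), Cry1 from 9.76 ± 0.754 to 15.6 ± 2.98 CPM (log2 0.74, adjusted p = 0.00257) and Per3 from 122 ± 15.3 to 153 ± 17.9 CPM (log2 0.39, adjusted p = 0.00914). Per1 was at a log2 change of 0.40 (adjusted p = 0.290), Cry2 at -0.10 (adjusted p = 0.291) and Bhlhe40, the paralog of Bhlhe41, at -0.50 (adjusted p = 0.150). Per1 was at 0.16 without tg5 (adjusted p = 0.646) and at 0.87 with the duct libraries left out (adjusted p = 0.450). Bhlhe40 passed the test without WT5 (log2 -0.66, adjusted p = 0.0478), but was at -0.32 with the duct score (adjusted p = 0.488) and at -0.10 with the duct libraries left out (adjusted p = 0.910). With the duct libraries left out, 0 of the core clock genes passed the test in that comparison of 1 against 4, with fitted changes in the same directions for the 7 that had been called. For those 7 genes the calls were kept with the duct score in the model.

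**Figure D4:**
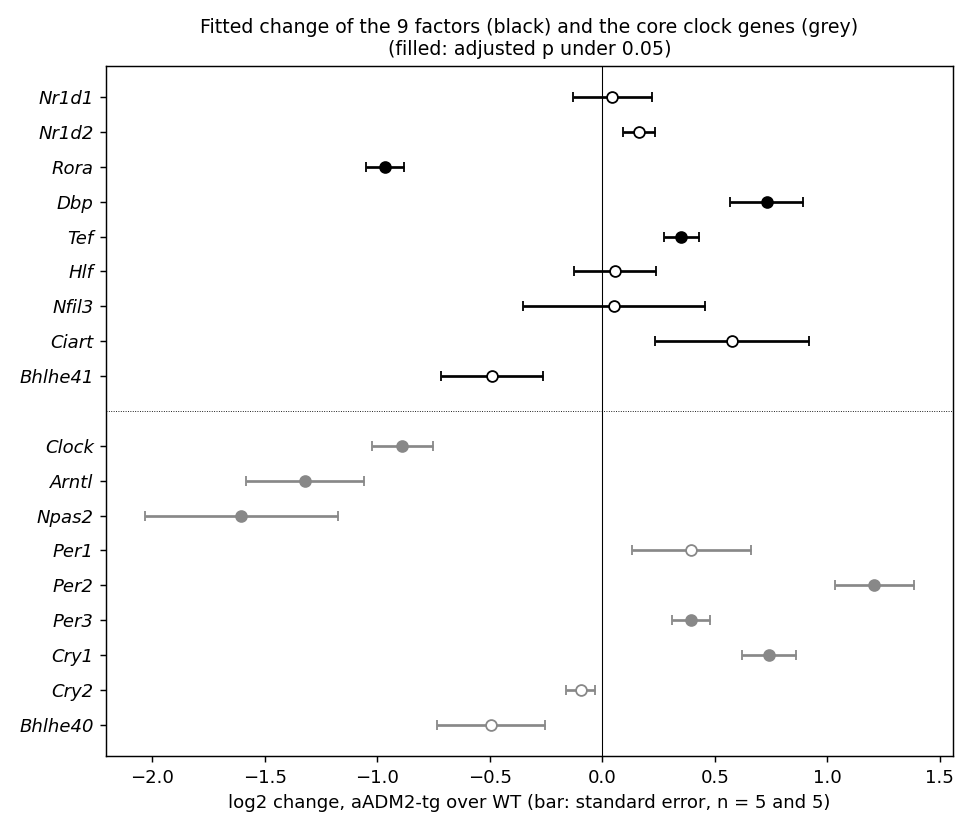
Fitted log2 change of aADM2-tg over WT (horizontal axis; bars, standard error, n = 5 and 5) of the 9 factors (black) and of 9 tested core clock genes (grey), filled where the adjusted p was under 0.05. Rora at -0.96 lies near Clock at -0.89, and Dbp at 0.73 near Cry1 at 0.74.

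The 4 further lists are to be read against the shares of all tested genes, 13.8% higher and 12.7% lower. Their calls are those of the comparison of all libraries. They were not checked with the duct score or with the correction for exonic length and GC content. That correction took the log2 change of Rora from -0.96 to -0.66 and that of Clock from -0.89 to -0.50. Rora and Clock have exonic lengths of 13071 and 13727 bases, and Ncor1 and Ncoa2, named below, have 12811 and 15642 bases. The corepressors that REV-ERB proteins recruit had 1 of 6 genes that rose, 3 that fell and 2 that did not pass (median log2 -0.12). The log2 change was -0.46 for Tbl1xr1, an exchange factor of the NCoR complex (adjusted p = 0.00126), -0.28 for the NCoR gene Ncor1 (adjusted p = 0.00831) and -0.21 for Tbl1x (adjusted p = 0.0176). Kinases, phosphatases and ubiquitin ligase parts that modify clock proteins had 0 of 10 higher and 2 lower (median -0.01). Of these the kinase gene Gsk3b was at a log2 change of -0.40 (adjusted p = 0.00546), while Csnk2a1 was at 0.15 (adjusted p = 0.0839).

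Against the same shares of 13.8% and 12.7%, genes that are rhythmic in many tissues had 4 of 10 members that rose, 1 that fell and 5 that did not pass (median 0.39). Tspan4 rose by 0.65 in log2 units (adjusted p = 0.00237) and Alas1, the first enzyme of haem synthesis, by 0.63 (adjusted p = 0.00445), and Nampt, an enzyme of NAD synthesis, fell by 0.32 (adjusted p = 0.00702). Among bZIP relatives and ROR or REV-ERB coregulators 2 of 7 rose, 2 fell and 3 did not pass (median -0.45). The bZIP genes Cebpd (log2 1.57, adjusted p = 0.00426) and Cebpb (log2 0.94, adjusted p = 0.0209) rose, and the coactivator gene Ncoa2 fell by 0.56 (adjusted p = 0.00196).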

How the data were processed

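RNA of 10 libraries, 1 per mouse, was sequenced by the authors, with HISAT2 2.2.1 and HTSeq 0.6.1 named in the submitters' processing notes. The deposited table gives, per the file headers, unnormalised read counts by gene beside exonic lengths. Their roles, the build, the annotation release and whether counting was stranded: not given in the sources used here. A further 10 columns of FPKM were not used, and FPKM printed here were computed from the counts and exonic lengths.

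Groups were taken from the sample labels. For the transgenic samples 3 to 5, titles and descriptions carry different numbers, so tg3, tg4 and tg5 follow the column names, which changes no group. The labels give 5 mice per group, but do not say whether mice shared a litter or a cage.

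Genotypes were compared with edgeR 4.0.16 in R 4.3.3 (filterByExpr, TMM scaling, quasi-likelihood test, genotype as the only term, all 10 libraries), with Benjamini-Hochberg adjustment of p-values over 16591 tested genes. CPM are counts per 1000000 counted reads, and log2 CPM for deviations used a prior count of 2. The model was run on simulated counts with planted changes, in which the libraries did not differ in duct RNA. That run therefore cannot show how duct RNA affects the calls. The 9 factors, the gene and marker lists and the alternatives were chosen with earlier results of these data known. The naming rule takes all 9 factors, the core clock genes and, of each other list, the 3 genes with the smallest adjusted p, and some genes that it names are not reported here, though they stay in the counts of their lists. Of the genes most similar to Nr1d1, Dbp and Nfil3, the 5 with the highest correlation of deviations are named, without predicted genes. Overlapping genes were found from the spans in the table.

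As alternatives, edgeR was run with DESeq2 size factors and with no expression filter, and DESeq2 1.42.0, limma 3.58.1 (limma-trend) on log2 of FPKM plus 1 or plus 0.1, voom with sample quality weights, fits with each library left out, the replicate number as a block, the duct score as a term, WT1 and tg2 left out, and all libraries with duct RNA left out (summed markers at least 3 times the lowest library) were also run. A loess correction (span 0.3) for exonic length and GC content, which had a value for 98.5% of tested genes and 9 of 9 factors, and the ratios with libraries left out were added after seeing the data. Promoter windows came from RefSeq (GRCm38.p6), where 9 of 9 symbols matched 10 windows. Plots were made in Python 3.11.15 (matplotlib 3.10.9).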

Additional observations from a re-analysis of the deposited data

Results flagged for a closer look

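A library stood apart where the gap to its nearest neighbour in the group of 5, divided by the whole range, was above 0.71, Dixon's 95% limit. Of 37 groups checked, 3 held such a library, and chance alone lists about 1 in 20 groups. The groups are those of the 9 factors and of 10 genes of the core clock list in both genotypes, without 1 group of at most 3 counts in each library. Rora in tg2 stood at 65.3 CPM, with the next library at 51.8 CPM and a gap of 0.712 of the range. Npas2 in tg2 stood at 3.35 CPM, with the next at 1.04 CPM. In both genes tg2, the transgenic library with duct RNA, was the one nearest to the WT values. Per3 in tg3 stood at 122 CPM, under the next aADM2-tg library at 155 CPM. The cause of these values was not tested.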

How the results depend on the processing

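Over 21 alternatives each, Rora kept its direction and its call, with a log2 change of -1.11 to -0.66. These include the fits without tg2 and without WT1 and tg2, in which no aADM2-tg library carried duct RNA. Those fits cannot show how duct RNA affects the Rora call. The -0.66 was found after the correction for exonic length and GC content. With the duct score as a term, 0 of the 9 factors were higher, and 0 were higher with the libraries that carry duct RNA left out, against 2 in the comparison of all libraries. With the latter setting, which has 1 WT library, 0 core clock genes were higher and 0 lower, against 3 and 4. The count of lower factors was 1 to 2 with 1 library left out (2 without tg4) and 2 with the replicate block, Bhlhe41 being added each time. Over all tested genes the higher count of 2285 fell to 824 with the duct score. It was 1391, 1505, 1519 and 1515 without WT2, WT3, WT4 and WT5, and rose to 3250 without tg2 and to 3195 without WT1 and tg2. The lower count of 2107 was 1308 with the duct score, 3515 without tg2 and 3622 without WT1 and tg2. Without WT1 and tg2, all WT libraries and no aADM2-tg library carried duct RNA, so genotype and duct RNA cannot be told apart there. The cause of these shifts in the counts was not tested.

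Libraries of the same replicate number deviated together in some pairs (correlations 0.49 and 0.67 for numbers 1 and 2) and not in others (-0.39, -0.26 and 0.04 for numbers 3, 4 and 5), and 4 of 10 libraries correlated best with their own number, so the numbers were not taken as a pairing. The numbers of tg3, tg4 and tg5 are uncertain in the labels, so this check and the replicate block rest on doubtful numbers for these 3 pairs. The log2 ratio of Dbp to Nfil3 between the groups ranged from 0.40 to 1.19 with 1 library left out. The sign of the log2 change of Nr1d1 (-0.27 to 0.21), Hlf (-0.08 to 0.36) and Nfil3 (-0.37 to 0.31) varied over the alternatives, with no call under any of the 21 for these 3. Depth limits Nfil3 and Ciart most, with 1177 and 1327 counts over all libraries.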

Other observations

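RNA of other tissues was also present in part of the libraries. Male germ cell markers (6 of 6 tested lower in aADM2-tg) together reached 275 to 321 CPM in the libraries WT2, WT3 and WT5, against 48.4 to 71.8 CPM elsewhere. Epididymal markers summed to 84.9 CPM in WT3 and to 121 CPM in tg5. Of the tested T and B cell markers 2 of 6 were higher, of the endothelial markers 2 of 6 were higher, and of the brown or beige adipocyte markers 1 of 3 was lower. Mesothelial, skeletal muscle, liver and duct markers had 0 of 5, 0 of 2, 0 of 3 and 0 of 17 past the edgeR test in either direction. The part of these markers in the results for the 9 factors was not tested, other than that of the duct markers given above.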
